A study of Mus musculus with 12 samples.

Results

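The genes described here are 9 receptors of T cells: the CD28 family members Cd28, Icos, Ctla4, Pdcd1 and Btla, and the inhibitory receptors Tigit, Cd96, Lag3 and Havcr2. They were chosen by name, as 9 of the 55453 genes of the count table, and were compared between CNS4 knockout and CNS4 floxed cells within each sex across all 12 libraries. Reads were counted for 8 of the 9 genes, and 7 passed the filter on low counts, under which 12411 genes were tested. Lag3 had 0 counts in all 12 libraries and Tigit was too low to be tested.

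The series examined regulatory T (Treg) cells, a CD4 lineage that is defined by the transcription factor Foxp3 and restrains other immune cells. CNS4 is a distal enhancer of Foxp3, a gene on chromosome X, and the title of the series concerns commitment to the Treg lineage in the thymus. Cells positive for CD4 and Foxp3 were sorted by flow cytometry from C57BL/6 mice and lysed without further treatment, and total RNA was made into stranded libraries. Each of the 4 groups had 3 libraries: males with the CNS4 knockout, males with the floxed (undeleted) enhancer, females labelled as CNS4 knockout heterozygotes, and females labelled as CNS4 floxed heterozygotes. The floxed males were labelled as wild type and are numbered 1, 2 and 4, and the other groups are numbered 1, 2 and 3. The labels gave no age, did not name the second allele of the females, and did not name the organ, though the sample titles hold the letters Thy. Whether libraries were made from different animals was not given either, so the spread behind each p-value is that between these samples, which may be technical.

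T cell activation needs a second signal beside the antigen receptor. CD28 supplies it on binding CD80 or CD86, and ICOS, a close relative, supplies it on binding ICOS ligand. CTLA-4 binds CD80 and CD86 more tightly than CD28 does and is a main effector molecule of Treg cells, while PD-1 (Pdcd1), BTLA, TIGIT, CD96, LAG-3 and TIM-3 (Havcr2) are receptors best known for dampening T cell responses.

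The libraries held between 12423335 and 30244505 reads in genes (median 14596845), most in male knockout library 3. Levels are given as CPM, counts scaled to a common TMM-adjusted library size. As a check of the label, 15 Treg and T cell genes summed to 12047 to 16449 CPM. By edgeR, 1 of the 15 passed over both sexes and in females: Gpr83, a receptor enriched in Treg cells, was lower (log2 fold change -0.74, adjusted p = 0.00465 over both sexes and -1.0, adjusted p = 0.0265 in females). Most of the list went the other way without passing: over both sexes 13 of the 15 lay above 0, with a median log2 fold change of 0.17. Foxp3 itself lay between 685 and 2675 CPM, and it was lower in every knockout than in every floxed library of the same sex, as 1.78% of tested genes were in both sexes, at 1878, 1462 and 2037 CPM in male knockout and 2675, 2588 and 2227 CPM in male floxed libraries. In females Foxp3 had 685, 1824 and 825 CPM in knockout and 2582, 2658 and 2657 CPM in floxed libraries, and numbers 1 and 3 of the female knockouts stood apart from number 2. Over both sexes its log2 fold change was -0.86 (SE 0.22, edgeR adjusted p = 0.0600 with Benjamini-Hochberg adjustment). Genes annotated on the plus strand held 95.8 to 97.2% of the reads of protein-coding genes in each library. Of the 9 receptors, Cd28, Icos, Ctla4, Btla and Havcr2 lie on the plus strand and Pdcd1, Tigit, Cd96 and Lag3 on the minus strand, so the counts of the last 4 do not show how much of their transcripts was present. The CD28 family genes Cd28, Ctla4, Icos and Pdcd1 lie on chromosome 1, Btla, Tigit and Cd96 on chromosome 16, Havcr2 on chromosome 11 and Lag3 on chromosome 6. None of the 9 shares exonic bases with a gene of the other strand in GENCODE release M21.

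Promoter sequences of receptors on the plus strand are shown because Ctla4 and Btla were called in the same direction, and Havcr2 had a log2 fold change close to that of Icos without being called. They are the 250 bases before the annotated start from RefSeq (build GRCm38.p6), 5′ to 3′ in the direction of the gene, for Ctla4 at chr1:60908775-60909024, Btla at chr16:45224087-45224336 and Havcr2 at chr11:46454681-46454930, all on the plus strand. The table held 6 of the 9 receptors, and Icos, Cd28 and Lag3 are named only.
Ctla4: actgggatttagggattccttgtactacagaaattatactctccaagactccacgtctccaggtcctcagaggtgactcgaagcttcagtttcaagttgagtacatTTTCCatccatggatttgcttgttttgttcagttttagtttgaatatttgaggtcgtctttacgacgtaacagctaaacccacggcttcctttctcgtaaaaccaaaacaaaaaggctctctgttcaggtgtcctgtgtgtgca
Btla: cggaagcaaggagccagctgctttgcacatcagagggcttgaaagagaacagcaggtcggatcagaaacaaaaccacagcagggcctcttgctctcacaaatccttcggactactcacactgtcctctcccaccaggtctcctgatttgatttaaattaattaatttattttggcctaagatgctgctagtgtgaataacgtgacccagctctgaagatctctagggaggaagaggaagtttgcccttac
Havcr2: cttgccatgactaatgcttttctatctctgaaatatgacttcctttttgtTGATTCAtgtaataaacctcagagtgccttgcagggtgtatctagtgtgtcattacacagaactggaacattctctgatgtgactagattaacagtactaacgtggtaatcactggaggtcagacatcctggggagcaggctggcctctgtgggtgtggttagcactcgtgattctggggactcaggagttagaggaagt
Capitals mark matches to 6 short motifs that were searched on both strands. Of general elements there was the TATA box, searched with the letters TATAAA. For factors downstream of cytokine and antigen receptors these were the STAT motif, written TTCNNNGAA, the AP-1 motif, for which the letters were TGANTCA, and the shorter core bound by NFAT, which was taken as GGAAA. The forkhead motif was searched as TGTTTAC, and lastly the site known for RBPJ, spelled GTGGGAA. None of these contains another. The Ctla4 window held the NFAT core on the other strand, TTTCC at position -144 counted from the start, a motif found in 55.6% of the 32851 promoters of this length. In the Havcr2 window the AP-1 letters TGATTCA stood at position -200, a motif found in 6.75% of promoters. The Btla window had no match to these letters, nor did the Ctla4 and Havcr2 windows to any motif other than the one named for each. A match is a description of the letters and says nothing of binding.

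The comparison of knockout with floxed cells over both sexes asked whether expression of these receptors differed with the enhancer whatever the sex. Icos was about 2-fold higher in knockout than in floxed Treg cells, Ctla4 and Btla were higher by smaller steps, and Cd28 differed by less than the spread between libraries. By edgeR's quasi-likelihood test, 3 of the 7 tested receptors rose and 0 fell at an adjusted p under 0.05, where 2.68% of the 12411 tested genes rose and 0.637% fell. The median log2 fold change of the 7 was 0.50, against -0.02 over all tested genes. In bulk RNA, more cells carrying a transcript and more of it per cell cannot be told apart.

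**Figure D1:**
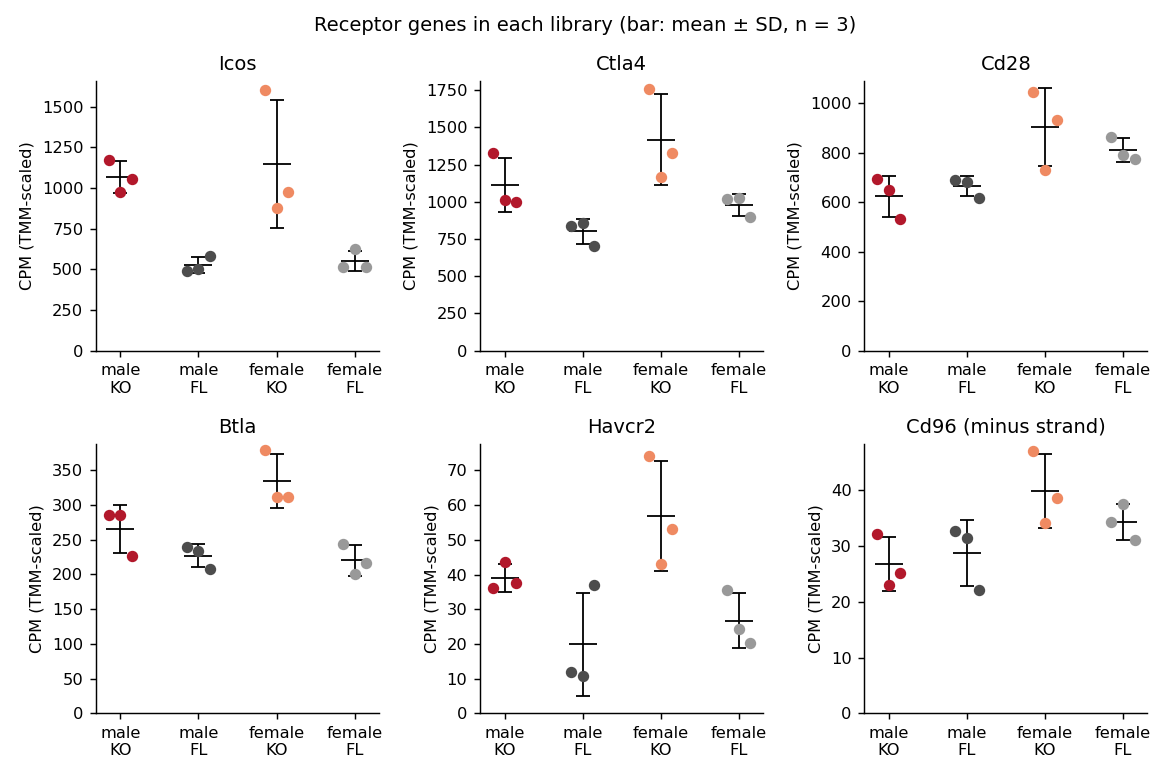
Level of 6 receptor genes in each library, in CPM scaled by TMM on axes that start at 0. Points are libraries, bars the mean ± SD of the 3 libraries of male knockout (KO), male floxed (FL), female knockout and female floxed cells; the knockout points of Icos and Ctla4 lie above all floxed points of the same sex, while those of Cd28 overlap with them.

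The plot of levels by library shows the 6 receptors of which each had 138 or more counts in every library, and the values behind it follow by role. Among the stimulatory receptors, Icos had 1170, 975 and 1058 CPM in male knockout libraries, against 492, 505 and 585 CPM in male floxed libraries. In females it had 1602, 876 and 973 CPM in knockout and 517, 625 and 516 CPM in floxed libraries. Every knockout library was above every floxed library of the same sex, and female knockout library 1 was the highest of all. Icos averaged 1068 ± 97.8 CPM in male knockout and 528 ± 50.4 CPM in male floxed cells (SD, n = 3 each), and 1151 ± 394 CPM in female knockout and 553 ± 62.7 CPM in female floxed cells (SD, n = 3 each). Over both sexes its log2 fold change was 1.04 (SE 0.14, edgeR adjusted p = 0.00631), which ranked 44th of the 12411 genes by p and 367th by size. The call held in all 24 alternative settings (log2 fold change 0.84 to 1.12, adjusted p = 6.7e-08 to 0.0322), among them the fit with female knockout 1 and 3 both left out (0.84, SE 0.10, edgeR adjusted p = 0.0304).

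Within each sex the Icos change was of the same size but the threshold was missed. It was 1.02 (SE 0.20, edgeR adjusted p = 0.113) in males and 1.06 (SE 0.21, edgeR adjusted p = 0.0692) in females. Tested directly, the female change minus the male change was 0.04 (SE 0.29, edgeR adjusted p = 0.981). This contrast, called the difference between the sexes below, cannot tell sex from the heterozygous label of the females. Few genes passed within a sex, 0.0242% of tested genes in males and 0.201% in females, and 0 of the 7 receptors by edgeR, with 2 in males and 4 in females at an unadjusted p under 0.05. Many other genes had unadjusted p-values that low. By edgeR, Havcr2 ranked 1039th of the 12411 genes in males (unadjusted p = 0.0525) and 1777th in females (unadjusted p = 0.0331). DESeq2 called 1 receptor in males and 2 in females, where it called 1.85% and 5.3% of tested genes. Limma-voom called 1 and 5, where it called 1.43% and 43.8% of tested genes. The male Icos value passed without female knockout library 1 (1.01, edgeR adjusted p = 0.026) and without female knockout library 2 (1.03, edgeR adjusted p = 0.0414), with adjusted p between 0.00208 and 0.52 over 25 alternatives. Without female knockout library 1, 0.125% of tested genes passed in males. Without female knockout library 2, 0.261% of tested genes passed in males and 23.7% in females. The female value passed without female knockout library 2 (1.22, edgeR adjusted p = 0.00133), with adjusted p between 5.2e-04 and 0.925 over 25 alternatives.

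Cd28, the founding costimulatory receptor of the family, had 693, 647 and 532 CPM in male knockout libraries, against 691, 683 and 618 CPM in male floxed libraries. In females it had 1045, 731 and 933 CPM in knockout and 864, 791 and 773 CPM in floxed libraries. The genotypes overlapped in both sexes. Its log2 fold change was 0.03 (SE 0.10, edgeR adjusted p = 0.863) over both sexes, -0.09 (SE 0.14, edgeR adjusted p = 0.999) in males and 0.16 (SE 0.14, edgeR adjusted p = 0.529) in females. A change of the size seen for Icos is far outside these standard errors, while a small change of either sign is not. Over the 24 alternatives the value for both sexes lay between -0.12 and 0.11 and was never called.

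Ctla4, the inhibitory counterpart of Cd28, had 1325, 1015 and 1001 CPM in male knockout libraries, against 841, 860 and 704 CPM in male floxed libraries. In females it had 1759, 1168 and 1329 CPM in knockout and 1016, 1027 and 895 CPM in floxed libraries. As for Icos, every knockout library lay above every floxed library of its sex, a pattern that 3.97% of tested genes had in both sexes. Ctla4 averaged 1114 ± 183 CPM in male knockout and 802 ± 85.4 CPM in male floxed cells (SD, n = 3 each), and 1419 ± 306 CPM in female knockout and 980 ± 73.5 CPM in female floxed cells (SD, n = 3 each). For both sexes together its log2 fold change was 0.50 (SE 0.12, edgeR adjusted p = 0.0457), a 1.42-fold difference. In males it was 0.47 (SE 0.17, edgeR adjusted p = 0.411) and in females 0.53 (SE 0.17, edgeR adjusted p = 0.162), and the difference between the sexes was 0.06 (SE 0.24, edgeR adjusted p = 0.962). The direction was the same in all 24 alternatives (0.37 to 0.57) but the call over both sexes held in 8 of them (adjusted p = 0.00197 to 0.23), and leaving out any 1 library other than male knockout 3 or female knockout 2 ended it.

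Btla, an inhibitory receptor that binds the TNF receptor family member HVEM, had 285, 286 and 226 CPM in male knockout libraries, against 239, 233 and 208 CPM in male floxed libraries. In females it had 379, 312 and 311 CPM in knockout and 244, 200 and 217 CPM in floxed libraries. Knockout was above floxed without overlap in females, as for 15.3% of tested genes, and male knockout library 3 fell among the male floxed libraries. Btla averaged 266 ± 34.5 CPM in male knockout and 227 ± 16.3 CPM in male floxed cells, and 334 ± 38.6 CPM in female knockout and 220 ± 22 CPM in female floxed cells (SD, n = 3 each). For both sexes together the log2 fold change was 0.42 (SE 0.09, edgeR adjusted p = 0.0422). It was 0.23 (SE 0.13, edgeR adjusted p = 0.798) in males and 0.60 (SE 0.13, edgeR adjusted p = 0.0834) in females, and the sexes differed by 0.37 (SE 0.19, edgeR adjusted p = 0.892), which did not pass. The call over both sexes held in 6 of 24 alternatives (0.32 to 0.48, adjusted p = 0.00156 to 0.206), and it ended when any 1 library other than male knockout 3 or female knockout 2 was left out. With female knockout 2 left out, the female values passed for Btla (0.65, SE 0.14, edgeR adjusted p = 0.00874) and for Ctla4 (0.66, SE 0.16, edgeR adjusted p = 0.0129). In that setting 23.7% of tested genes passed in females. Over 25 alternatives the female value was called in 3 for Btla and in 2 for Ctla4.

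**Figure D2:**
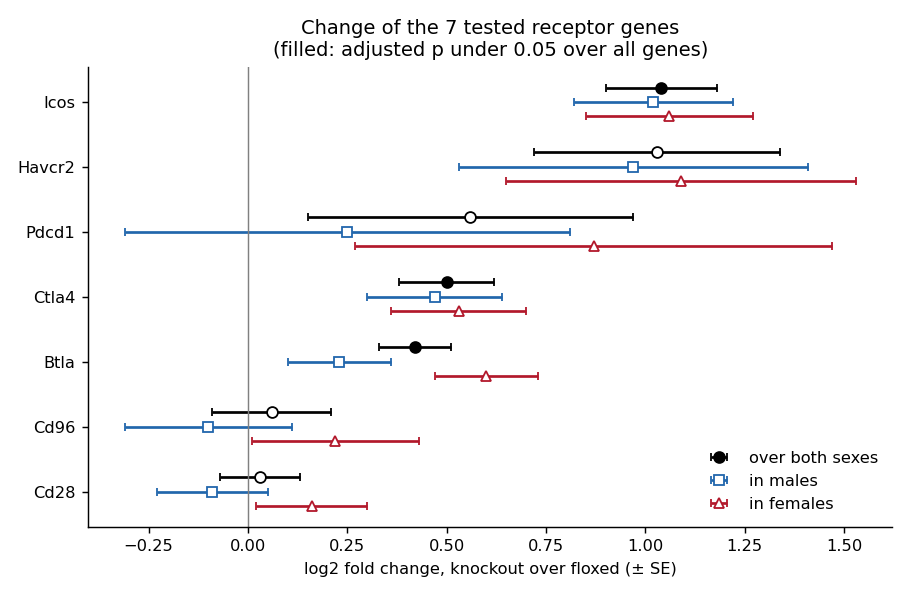
Log2 fold change of knockout over floxed cells (x axis, ± SE) for the 7 tested receptor genes over both sexes (circles), in males (squares) and in females (triangles). Filled symbols passed an edgeR adjusted p of 0.05; these are Icos, Ctla4 and Btla over both sexes, and Cd28 and Cd96 lie near 0.

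Havcr2, which encodes TIM-3 and is also expressed by myeloid and dendritic cells, was measured on 138 to 1230 counts per library. It had 36, 43.5 and 37.6 CPM in male knockout libraries, against 11.9, 10.7 and 37.1 CPM in male floxed libraries. In females it had 74.2, 43.0 and 53.2 CPM in knockout and 35.5, 24.4 and 20.3 CPM in floxed libraries. The plot of log2 fold changes places it next to Icos, with a wider error. Knockout lay above floxed without overlap in females, and in males, where 8.2% of tested genes had no overlap in this direction, floxed library 4 reached the knockout level. For both sexes together the log2 fold change was 1.03 (SE 0.31, edgeR adjusted p = 0.106), and it was 0.97 (SE 0.44, edgeR adjusted p = 0.627) in males and 1.09 (SE 0.44, edgeR adjusted p = 0.231) in females, so that it was not called.

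Markers of myeloid and dendritic cells varied between libraries in step with part of the Havcr2 pattern. The summed level of 20 such genes was 246, 1952 and 456 CPM in male knockout libraries 1, 2 and 3, and 113, 164 and 1833 CPM in male floxed libraries 1, 2 and 4. In females it was 892, 1032 and 1729 CPM in knockout and 1178, 287 and 606 CPM in floxed libraries. By edgeR, 14 of these genes were tested and 0 passed over both sexes (0 at an unadjusted p under 0.05), with a median log2 fold change of 0.66, and none of the 20 was at 0 in all libraries. Male floxed library 4 had both the highest myeloid sum and the highest Havcr2 of its group. Without that library the Havcr2 value for both sexes together was 1.43 (SE 0.20, edgeR adjusted p = 0.00527), without it and male knockout library 2 it was 1.41 (SE 0.21, edgeR adjusted p = 0.0131), and with the myeloid level as a covariate 0.88 (SE 0.22, edgeR adjusted p = 0.0741). The male value was 1.79 without male floxed library 4 (SE 0.30, edgeR adjusted p = 0.0524, with 0.0524 to 1 as the range over 25 alternatives), 1.71 without it and male knockout library 2, and 1.88 with the replicate block. No other library has the number 4, so the block fits male floxed library 4 by itself. The value with the block therefore does not draw on that library either. Leaving out female knockout library 2 also brought the value for both sexes past the threshold (1.11, SE 0.33, edgeR adjusted p = 0.0398). In that setting 22.6% of tested genes passed over both sexes. Over the 24 alternatives for both sexes the adjusted p lay between 0.00158 and 0.52. Male knockout libraries 1 and 3, with myeloid sums of 246 and 456 CPM, had 36 and 37.6 CPM of Havcr2. Male floxed libraries 1 and 2, with lower sums of 113 and 164 CPM, had 11.9 and 10.7 CPM. The part of myeloid cells in the Havcr2 values was not tested.

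**Figure D3:**
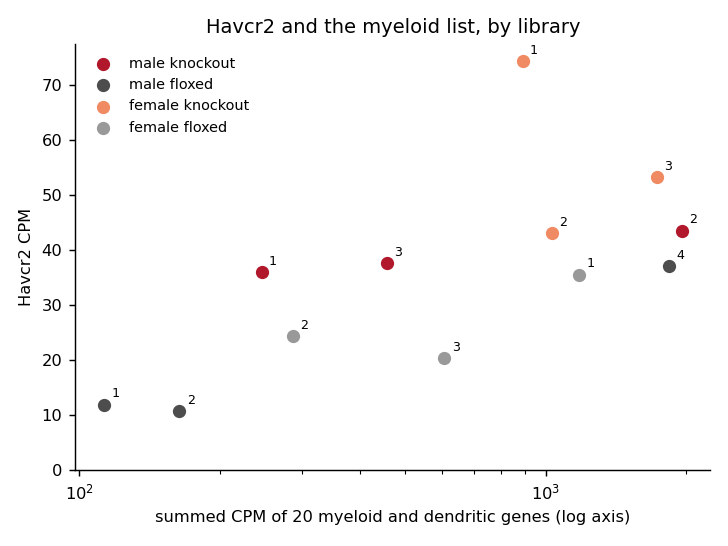
Havcr2 in CPM (y axis) against the summed CPM of 20 myeloid and dendritic genes (x axis, log scale) in the 12 libraries, numbered within the 4 groups. Male floxed library 4 lies at 1833 CPM of myeloid genes and 37.1 CPM of Havcr2, away from male floxed libraries 1 and 2 at the lower left.

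The plot of Havcr2 against the myeloid genes shows the split of the male floxed group, and also that female knockout library 1 had the highest Havcr2, 74.2 CPM, with a myeloid sum of 892 CPM. For the 3 receptors called over both sexes, male knockout library 1 had a low myeloid sum of 246 CPM and the highest male Icos and Ctla4. Male floxed library 4, with the high sum, had the lowest male Ctla4 and Btla and the highest Icos among floxed males. With the myeloid level as a covariate the values for both sexes together were 1.05 for Icos (SE 0.16, edgeR adjusted p = 0.013), 0.57 for Ctla4 (SE 0.12, edgeR adjusted p = 0.0364) and 0.42 for Btla (SE 0.11, edgeR adjusted p = 0.0859). Whether myeloid cells had a part in these changes was not tested.

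Summed levels of markers of other cells were as follows. The 9 NK-like genes summed to 197 to 217 CPM in male knockout, 165 to 195 CPM in male floxed, 199 to 287 CPM in female knockout and 161 to 180 CPM in female floxed libraries, with Klrb1c and Tbx21 at 0 in every library. Every knockout sum of the NK-like genes was above every floxed sum of its sex, while 2 of the 4 tested genes lay above 0 in log2 fold change over both sexes. The 9 B cell genes, of which 2 were tested, summed to 17.1 to 67.3 CPM in male knockout, 18.6 to 42.6 CPM in male floxed, 27.7 to 44.0 CPM in female knockout and 17.9 to 26.1 CPM in female floxed libraries, without overlap in females. The 10 thymic epithelial genes summed to 49.7 to 162 CPM, with Foxn1, Krt5, Krt14 and Cldn4 at 0 in every library. The 7 CD8 T cell genes summed to 134 to 324 CPM, with Gzmk at 0. Markers of double-positive thymocytes, 10 genes, summed to 434 to 899 CPM in male knockout, 584 to 764 CPM in male floxed, 779 to 1405 CPM in female knockout and 724 to 912 CPM in female floxed libraries, and 0 of 8 tested passed in edgeR, 1 having an unadjusted p under 0.05. No gene of the B cell, NK-like, thymic epithelial or CD8 T cell lists was called over both sexes either, with 2 of 4 tested NK-like genes at an unadjusted p under 0.05. Over both sexes, 8 of 8 tested double-positive, 5 of 5 thymic epithelial, 3 of 5 CD8 T cell and 2 of 2 B cell genes lay above 0. Their median log2 fold changes were 0.33, 0.87, 0.10 and 0.37. Of the myeloid genes, 13 of 14 lay above 0. Female knockout library 3 had the highest thymic epithelial, CD8 T cell and double-positive sums, 162, 324 and 1405 CPM. The part of these cells in the receptor changes was not tested.

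The receptors on the minus strand gave little. Cd96, a receptor of the nectin-binding family, had 317 to 779 counts per library. It had 32.1, 22.9 and 25.1 CPM in male knockout and 32.7, 31.4 and 22 CPM in male floxed libraries, and 47.0, 34.0 and 38.5 CPM in female knockout and 34.2, 37.4 and 31.0 CPM in female floxed libraries. The genotypes overlapped in both sexes, with a log2 fold change for both sexes together of 0.06 (SE 0.15, edgeR adjusted p = 0.838). Pdcd1 was counted 17, 10 and 19 times in male knockout and 3, 15 and 10 times in male floxed libraries, and 17, 8 and 7 times in female knockout and 3, 7 and 7 times in female floxed libraries. Its log2 fold change was 0.56 (SE 0.41, edgeR adjusted p = 0.447) and its groups overlapped. Tigit, which competes with the activating receptor CD226 for the ligand CD155, was counted 11, 4 and 8 times in male knockout and 2, 2 and 6 times in male floxed libraries. In females its counts were 29, 13 and 5 in knockout and 3, 6 and 4 in floxed libraries, overlapping as well. Tested without a filter it had a log2 fold change of 1.26 over both sexes (SE 0.49, edgeR adjusted p = 0.346). For Lag3, a receptor for MHC class II, 0 counts allow a counted level of up to 0.114 to 0.233 CPM per library, covering counting error only, and being on the minus strand they put no limit on its transcript.

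Compared per length, the plus-strand receptors kept one order in all 4 groups. Per kilobase of exon, Ctla4 averaged 478 ± 78.5 CPM in male knockout, 344 ± 36.7 in male floxed, 609 ± 131 in female knockout and 420 ± 31.6 in female floxed cells. Icos came next with 311 ± 28.5, 154 ± 14.7, 335 ± 115 and 161 ± 18.3 CPM per kilobase in the same groups. Cd28 followed with 102 ± 13.5, 108 ± 6.57, 147 ± 26 and 132 ± 7.83, and Btla with 78.3 ± 10.2, 66.8 ± 4.81, 98.4 ± 11.4 and 64.8 ± 6.48. Havcr2 was lowest at 14.3 ± 1.45, 7.32 ± 5.47, 20.9 ± 5.86 and 9.82 ± 2.88 CPM per kilobase (SD, n = 3 throughout). Within each group, neighbours in this order did not overlap between libraries. Floxed females lay above floxed males without overlap for Ctla4 and Cd28, at 1.22 times the male mean for both, as 10.7% of tested genes did.

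Counts of a receptor were also divided by those of Cd28 in the same library, which does not depend on the scaling of libraries. These ratios were chosen after the values had been seen. Icos per Cd28 was 1.69, 1.51 and 1.99 in male knockout libraries, against 0.712, 0.740 and 0.948 in male floxed libraries. In females it was 1.53, 1.2 and 1.04 in knockout and 0.599, 0.790 and 0.667 in floxed libraries. The 6 knockout libraries thus lay between 1.04 and 1.99 and the 6 floxed libraries between 0.599 and 0.948. Ctla4 per Cd28 was 1.91, 1.57 and 1.88 in male knockout and 1.22, 1.26 and 1.14 in male floxed libraries, and 1.68, 1.60 and 1.42 in female knockout libraries, against 1.18, 1.30 and 1.16 in female floxed libraries. Btla per Cd28 was 0.412, 0.443 and 0.425 in male knockout and 0.346, 0.341 and 0.337 in male floxed libraries. The male genotypes of Btla, which overlapped in CPM, did not overlap in this ratio. In females it was 0.362, 0.427 and 0.334 in knockout and 0.282, 0.253 and 0.280 in floxed libraries. How many of all tested genes separate when divided by Cd28 was not counted, so the separation cannot be called particular to these receptors.

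**Figure D4:**
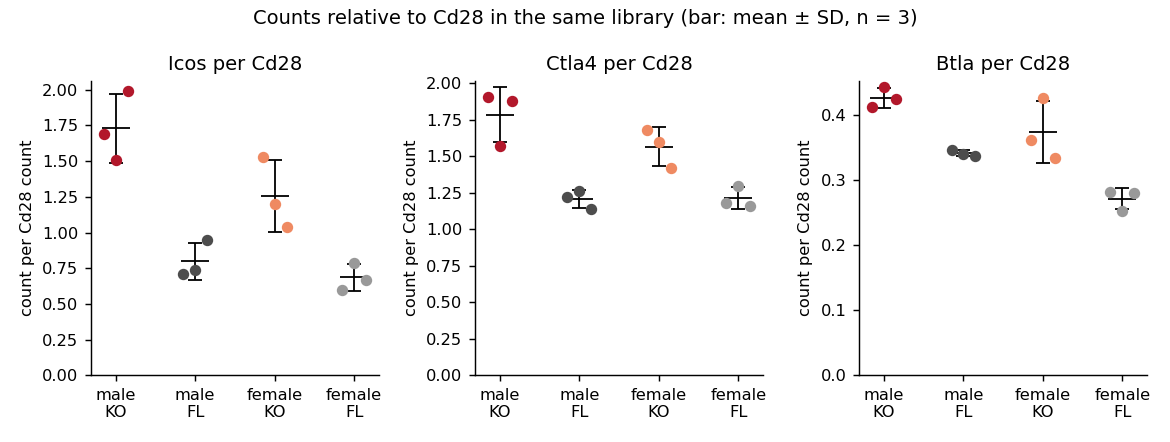
Counts of Icos, Ctla4 and Btla per count of Cd28 in the same library, on axes that start at 0. Points are libraries and bars the mean ± SD of 3 libraries of male knockout (KO), male floxed (FL), female knockout and female floxed cells; in each panel the knockout points of a sex lie above its floxed points.

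On the log2 scale, and averaged over the sexes, the ratio to Cd28 was higher in knockout cells by 0.99 for Icos, 0.47 for Ctla4 and 0.39 for Btla. The plot of counts relative to Cd28 shows the separation of the genotypes in each sex, for which no share over all genes was counted. Since the ratios were chosen on these values, no test of them is given. Icos was also higher relative to Ctla4, by 0.52 on the log2 scale. The ratio was 0.883, 0.960 and 1.06 in male knockout and 0.585, 0.588 and 0.832 in male floxed libraries, and 0.911, 0.750 and 0.732 in female knockout libraries, against 0.509, 0.608 and 0.576 in female floxed libraries. Havcr2 per Cd28 was higher by 1.13 on the same scale, with overlap in males.

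The ratios of Ctla4 and Icos to Foxp3 were highest in female knockout libraries 1 and 3, where Foxp3 itself was lowest, at 685 and 825 CPM. Ctla4 per Foxp3 count was 0.706, 0.695 and 0.492 in male knockout and 0.315, 0.332 and 0.316 in male floxed libraries. In females it was 2.57, 0.641 and 1.61 in knockout and 0.394, 0.387 and 0.337 in floxed libraries. Icos per Foxp3 count was 0.623, 0.667 and 0.520 in male knockout and 0.184, 0.195 and 0.263 in male floxed libraries, and 2.34, 0.480 and 1.18 in female knockout libraries, against 0.200, 0.235 and 0.194 in female floxed libraries. In female knockout library 2, whose Foxp3 was 1824 CPM, Icos and Ctla4 were the lowest of the female knockout libraries and still above all female floxed libraries.

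Cd28, Ctla4 and Icos are neighbours in that order on chromosome 1, and the 3 differed in their change. Among annotated genes between or overlapping them in GENCODE release M21, 4 were tested. Gm38137, between Cd28 and Ctla4, had a log2 fold change of 1.08 over both sexes (SE 0.31, edgeR adjusted p = 0.086) at 7 to 39 counts per library. Gm37198, also between them, had -0.20 (SE 0.29, edgeR adjusted p = 0.718). Gm37039 overlaps Icos on the same strand and had 0.86 (SE 0.32, edgeR adjusted p = 0.176), and Rpl18-ps1 overlaps Ctla4 on the same strand and had 0.32 (SE 0.20, edgeR adjusted p = 0.381). Reads of such overlapping models and of their host gene cannot be told apart with certainty, and against the 6513 to 27866 Icos counts and 10119 to 29150 Ctla4 counts their own counts, at most 212 and 134, were small.

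Of 21 ligands of these receptors and their relatives, 15 were tested, and 1 rose and 0 fell over both sexes, with a median log2 fold change of 0.62. The called gene was Pdcd1lg2, which encodes the PD-1 ligand PD-L2, at 49.6 ± 5.77 CPM in male knockout and 26.6 ± 2.09 CPM in male floxed cells, and 42.0 ± 12 CPM in female knockout and 25.2 ± 1.36 CPM in female floxed cells (SD, n = 3 each; log2 fold change 0.82, SE 0.14, edgeR adjusted p = 0.0136). Of the 15 tested, 14 lay above 0, and the ligands named next were not called and were picked after their values were seen. Cd80, a shared ligand of CD28 and CTLA-4, had 0.63 (edgeR adjusted p = 0.0804), Cd274, which encodes PD-L1, 0.32 (edgeR adjusted p = 0.0733) and Icosl 0.59 (edgeR adjusted p = 0.319). Of these 4, all are on the plus strand. Antigen-presenting cells also carry these ligands, and the myeloid sums given above, with a median log2 fold change of 0.66 over 14 tested markers, apply beside them; their part in the ligand values was not tested.

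Of 24 other costimulatory and inhibitory receptors outside the TNF receptor superfamily, 20 were tested, and 2 rose and 0 fell, with a median of 0.34. Slamf6, a self-binding receptor of the SLAM family, averaged 608 ± 83.3 CPM in male knockout and 400 ± 8.89 CPM in male floxed cells, and 694 ± 119 CPM in female knockout and 428 ± 12.3 CPM in female floxed cells (SD, n = 3 each; log2 fold change 0.65, SE 0.09, edgeR adjusted p = 0.00786). Pvrig, an inhibitory receptor that binds nectin-2, was low at 6.92 ± 0.339 CPM in male knockout and 3.54 ± 0.467 CPM in male floxed cells, and 7.47 ± 2.89 CPM in female knockout and 2.75 ± 0.523 CPM in female floxed cells (SD, n = 3 each; log2 fold change 1.2, SE 0.20, edgeR adjusted p = 0.0117). Of the 20 tested, 16 lay above 0, and the genes named next were not called and were picked after their values were seen. Cd226, the activating counterpart of Tigit and Cd96, had 0.53 (edgeR adjusted p = 0.0654), and Cd48 of the SLAM family 0.43 (edgeR adjusted p = 0.0504).

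**Figure D5:**
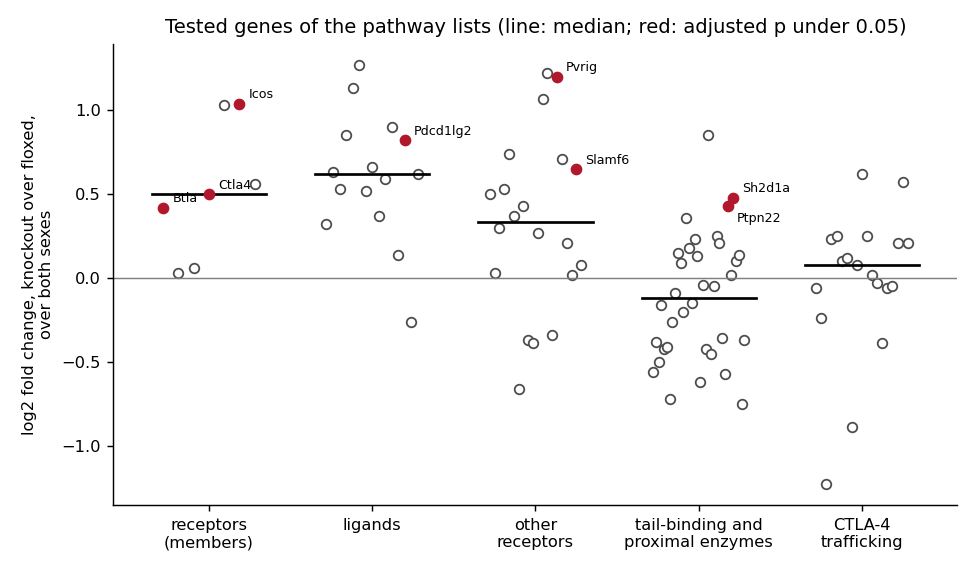
Log2 fold change of knockout over floxed cells over both sexes (y axis) for the tested genes of 5 lists; each point is a gene, the line the median of its list, and filled red points passed an edgeR adjusted p of 0.05. Medians are 0.50 for the receptors described here, 0.62 for ligands, 0.34 for other receptors, -0.12 for tail-binding and proximal enzymes and 0.08 for CTLA-4 trafficking genes.

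The plot of the lists also gives genes that act inside the cell. Of 37 adaptors, kinases and phosphatases that act at or near the tails of these receptors, 34 were tested, and 2 rose and 0 fell (10 at an unadjusted p under 0.05), with a median of -0.12. Sh2d1a, which encodes the SLAM family adaptor SAP, had 0.48 (SE 0.09, edgeR adjusted p = 0.0222), and Ptpn22, a phosphatase that dampens antigen receptor signalling, 0.43 (SE 0.08, edgeR adjusted p = 0.0223). Of 20 genes for the trafficking and recycling of CTLA-4, 19 were tested and 0 passed in edgeR, 8 having an unadjusted p under 0.05, with a median of 0.08. Low unadjusted p-values were common among all genes too. Over both sexes, by edgeR, Havcr2 at an unadjusted p of 0.00786 ranked 923rd of 12411, and Pdcd1 at 0.196 ranked 5447th. By edgeR, 0 genes of the ligand, other receptor, proximal and trafficking lists passed within males, within females or for the difference between the sexes.

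The genes whose levels followed each plus-strand receptor most closely over the 12 libraries were found among 4649 genes with a mean log2 CPM of at least 4, as a description, since the libraries share group differences and depth. For Icos they were Glrx, Cldnd1 and Zcchc18, with Pearson's r of 0.985, 0.976 and 0.975. The genes most like Ctla4 were Sugt1 at 0.971, Capza1 at 0.960 (minus strand) and Ascc1 at 0.958. Those most like Cd28 were Scfd1 at 0.977, Abhd18 at 0.975 and Bclaf1 at 0.971. Btla was followed by Mtch2 at 0.977, Oxnad1 at 0.972 and Arhgap24 at 0.950, and Havcr2 by Rnase4 at 0.943 and Atxn7l1 at 0.928. The 5 receptors had no gene in common among these.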

How the data were processed

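The authors deposited unnormalized read counts, 1 row per gene symbol. The submitters' processing notes name CASAVA, 2 versions of STAR (2.3.0e and 2.5.2b), HTSeq 0.6.1p1 and the build mm9. Which STAR version did what, the annotation and the strand setting are not given in the sources used here. Per the labels' protocols, stranded SMARTer kits from Takara were used. The HTSeq summary entries stayed out of library sizes and tests. They held 44.3 to 46.9% of a library's reads without a feature, 14.1 to 17.3% without a unique position, 4.73 to 8.01% unaligned and 0.584 to 0.678% ambiguous, leaving 29.5 to 35.7% in genes.

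Strand, exon length and GC content came from GENCODE release M21 by symbol, which matched 54510 of 55453 genes and is on a later build than mm9. Its lengths need not be those counted. Promoters came from RefSeq on GRCm38.p6.

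Counts were fitted with edgeR 4.0.16 in R 4.3.3 (filterByExpr on the 4 groups, TMM, 1 mean per group, robust quasi-likelihood), leaving 12411 of 29806 genes with reads. Knockout was compared with floxed in males, in females and over the mean of both, and the female and male contrasts were compared. P-values were adjusted by Benjamini-Hochberg over all tested genes at 0.05. A library's floor was 3 counts. Alternatives were RLE scaling, DESeq2 1.42.0, limma-voom (limma 3.58.1) with quality weights, other filters, a replicate block, a correction for GC content and length, plus-strand genes, a myeloid covariate, 1 sex alone, and libraries left out. Named genes were all receptors, pathway list genes past the threshold, annotated models at the Cd28, Ctla4 and Icos locus and the 3 genes most like each plus-strand receptor, of which 1 is not reported here. Named beside them after their values were seen were Cd80, Cd274, Icosl, Cd226 and Cd48. The code of the fit was run on simulated data with 200 changed genes and the same spread for every gene. That setting is simpler than these libraries and does not bear on the calls made here. The receptors, lists and tests were chosen with earlier results of these data known.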

Additional observations from a re-analysis of the deposited data

How the results depend on the processing

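Of the receptors over both sexes, Icos was called in all 24 alternatives, Ctla4 in 8, Btla in 6, Havcr2 in 7, and Cd28, Pdcd1 and Cd96 in none. The number of receptors called over both sexes, 3, was 1 after a GC and length correction and on plus-strand genes only. There 2.84% and 4.06% of tested genes were called. It was 4 by DESeq2 and 4 by limma-voom, where 9.1% and 37.3% of tested genes were called. Ctla4, Btla and Havcr2 were each called by both of these methods. In males the number was 1 rather than 0 by DESeq2, by limma-voom and without a low-count filter. These settings called 1.85%, 1.43% and 0.0872% of tested genes in males. In females the number of receptors was 2 by DESeq2, 5 by limma-voom and 1 without a filter, where 5.3%, 43.8% and 0.315% of tested genes were called. Leaving out 1 library gave 1 to 4 over both sexes, 0 to 1 in males and 0 to 3 in females. The 4 and the 3 came without female knockout 2, where 22.6% and 23.7% of tested genes were called. Where 1 receptor was called over both sexes, 0.758 to 1.62% of tested genes were. Where 1 was called in males, without female knockout 1 or 2, the shares were 0.125% and 0.261%. Leaving out 2 libraries of a group assumes that the lone one varies like the other groups. The cause was not tested.

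Genes called over both sexes, 411, were 1129 by DESeq2, 4630 by limma-voom, 209 with the replicate block, 262 with block and GC correction, 264 with the myeloid covariate and 44 without female knockout libraries 1 and 3. Limma-voom called 1834 higher and 2796 lower, against 332 and 79. In males, 3 became 229 by DESeq2, 177 by limma-voom, 26 without a filter, 11 without female knockout libraries 1 and 3, and 0 with the replicate block, block and GC correction, GC correction, plus-strand genes, myeloid covariate, males alone, or when male floxed 4 and male knockout 2 were left out. In females, 25 became 658 by DESeq2, 5437 by limma-voom, 94 without a filter, 50 at 5 CPM, 13 with the myeloid covariate, 63 without male floxed 4 and male knockout 2, and 0 with the block, block and GC correction, females alone, or without female knockout libraries 1 and 3. The sex difference gave 1040 genes by limma-voom and 0 in edgeR. Leaving out 1 library gave 98 to 2940 genes over both sexes, 0 to 35 in males, 0 to 3089 in females and 0 to 1108 for the sex difference. The highest counts were those without female knockout 2, except in males (35 without male floxed 4).

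Whether the replicate numbers mark pairs of libraries was not settled. Deviations of same-numbered libraries from their group means correlated at 0.442 and -0.614 in males and at 0.189, 0.279 and -0.225 in females. These have no common sign, and such correlations cannot show that libraries were or were not paired. With the replicate block Icos was 1.09 (edgeR adjusted p = 0.025), Havcr2 1.49 (edgeR adjusted p = 0.0203), Ctla4 0.48 (edgeR adjusted p = 0.0777) and Btla 0.41 (edgeR adjusted p = 0.0786).

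Signs that turned belonged to changes not called by edgeR with all libraries; Cd28 in females was called by limma-voom (0.24, adjusted p = 0.0303). Cd28 over both sexes was -0.00037 after GC correction and -0.12 without female knockout libraries 1 and 3, where Cd28 in females was -0.14. Cd96 over both sexes was -0.012 with the block, -0.076 with block and GC correction and -0.053 without those libraries; it was 0.016 in males with the myeloid covariate and -0.0047 in females without those libraries. The sex difference of Ctla4 was -0.22 without them. That of Icos was -0.15 by limma-voom, -0.12 with the block, -0.083 with block and GC correction, -0.34 with female knockout 1 and 3 left out, and -0.089 with male floxed 4 and male knockout 2 left out. Leaving out 1 library, Cd28 ran from -0.04 to 0.11 over both sexes and -0.18 to 0.027 in males, Cd96 from -0.023 to 0.12 over both and -0.26 to 0.0021 in males, Pdcd1 in males from -0.18 to 0.84, and the sex difference from -0.12 to 0.20 for Ctla4 and -0.28 to 0.20 for Icos.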
